A study of Mus musculus with 20 samples.

Results

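Liver DNA methylation of offspring exposed to an adverse maternal environment (AME-d21) was compared with that of control offspring (Con-d21) at weaning. The comparison takes the 5 libraries labelled AME-d21 and the 5 labelled Con-d21, 10 of the 20 libraries of the series. The offspring were wild-type C57BL/6J mice labelled male, of postnatal age d21. The dams of the AME-d21 offspring ate a Western-style diet from before mating until the end of lactation, and they were also exposed to environmental stress late in pregnancy, so that the diet and the stress cannot be told apart. The dams of the Con-d21 offspring ate the control diet and were not stressed. The study's methods give 5 litters for each group, and the libraries were made from whole ground liver, with all its cell types. The other 10 libraries, of newborn offspring (AME-d0 and Con-d0), are used here only to look again at the regions that stood out at d21.

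In mammals DNA methylation is placed mainly on the cytosine of CpG dinucleotides. CpG islands at gene starts are usually free of it, gene bodies and the DNA between genes usually carry it, and at imprinted genes 1 parental copy is methylated and the other is not. After birth the liver loses its blood-forming cells and its hepatocytes mature, and the methylation of metabolic genes has been studied as a possible record of the maternal diet. Reduced representation bisulfite sequencing (RRBS) cuts genomic DNA with MspI, which recognizes CCGG, sequences the short fragments, and counts each covered CpG as methylated or unmethylated in every read.

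On the autosomes, 648895 CpGs had at least 10 reads in all 10 libraries. Their methylated and unmethylated reads were also summed over 170543 bins of 200 bp, over 13650 promoters (the 2 kb centred on a transcription start site or TSS, if they held 3 or more of these CpGs) and over 16435 gene bodies (the whole annotated span of a gene, if it held 5 or more). The libraries held 23248139 to 35590513 reads over all CpGs in AME-d21 and 29189314 to 37692136 in Con-d21, with a median of 7 to 10 reads per CpG in AME-d21 and 9 to 10 in Con-d21. The library labelled AME-d21 replicate 4 went against its label of male. It had 2.88 X-chromosome reads per 100 autosomal reads and 16.2 reads from the Y short arm per 1000000 reads, where the other AME-d21 libraries had 1.53 to 1.55 and 189 to 214, and the Con-d21 libraries 1.53 to 1.54 and 190 to 216. Only autosomes enter the comparison, and a number of results are also given without that library.

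The sequences of sites chosen for their difference at d21 are shown first. None of these sites was called after adjustment by the main tests used here for single CpGs and bins. The sequences are the plus strand of GRCm38, the assembly of mm10, in lower case, with the CpGs that were tested in capitals. The first 2 are the 50 bases on either side of the CpGs called before adjustment. These were the only CpGs that the quasi-binomial test, used here for single CpGs, called between the groups. In these 2 sequences the capitals mark the called CpG alone. The site of Cit (chr5:115869216-115869317) lies in an intron 23988 bp downstream of the start of Cit, the gene of citron kinase, an enzyme of cell division. The site of Gm48651 (chr10:20813490-20813591) lies in an intron of that long non-coding RNA gene.
Cit: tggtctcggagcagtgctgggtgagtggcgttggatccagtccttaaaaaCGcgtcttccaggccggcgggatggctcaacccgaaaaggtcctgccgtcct
Gm48651: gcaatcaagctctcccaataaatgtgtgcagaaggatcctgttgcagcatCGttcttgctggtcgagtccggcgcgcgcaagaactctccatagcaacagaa

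The next 6 are whole bins in which all AME-d21 libraries lay on the same side of all Con-d21 libraries. They are an intron of 6030440G07Rik (chr12:111008801-111009000), DNA between genes whose nearest TSS is that of Gm28187 (chr1:102010001-102010200), an exon of Adrb3 in a CpG island (chr8:27227401-27227600), an exon of Mycbpap 42 bp from its TSS in a CpG island (chr11:94521601-94521800), an exon of Slc3a2 in a CpG island (chr19:8714001-8714200) and an intron of Trps1 in a CpG island (chr15:50869601-50869800). Each holds at least 1 CCGG, the site of MspI.
6030440G07Rik: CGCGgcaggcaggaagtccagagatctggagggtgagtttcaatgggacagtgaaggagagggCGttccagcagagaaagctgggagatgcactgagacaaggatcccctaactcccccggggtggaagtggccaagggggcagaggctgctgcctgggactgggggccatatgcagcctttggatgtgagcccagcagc
Gm28187: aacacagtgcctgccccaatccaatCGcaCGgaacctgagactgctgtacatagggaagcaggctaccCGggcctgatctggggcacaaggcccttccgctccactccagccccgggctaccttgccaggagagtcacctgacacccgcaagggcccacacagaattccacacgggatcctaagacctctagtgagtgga
Adrb3: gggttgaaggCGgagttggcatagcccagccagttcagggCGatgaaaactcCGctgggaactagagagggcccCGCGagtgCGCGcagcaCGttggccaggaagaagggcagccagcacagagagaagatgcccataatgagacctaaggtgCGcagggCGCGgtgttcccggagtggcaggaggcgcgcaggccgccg
Mycbpap: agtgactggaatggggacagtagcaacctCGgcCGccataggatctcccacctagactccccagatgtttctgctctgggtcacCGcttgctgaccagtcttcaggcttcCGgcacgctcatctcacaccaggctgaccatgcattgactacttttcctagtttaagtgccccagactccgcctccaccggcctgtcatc
Slc3a2: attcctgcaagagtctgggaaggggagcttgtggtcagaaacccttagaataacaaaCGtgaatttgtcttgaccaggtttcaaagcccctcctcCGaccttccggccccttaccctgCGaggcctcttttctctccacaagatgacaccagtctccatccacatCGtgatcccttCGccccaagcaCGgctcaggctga
Trps1: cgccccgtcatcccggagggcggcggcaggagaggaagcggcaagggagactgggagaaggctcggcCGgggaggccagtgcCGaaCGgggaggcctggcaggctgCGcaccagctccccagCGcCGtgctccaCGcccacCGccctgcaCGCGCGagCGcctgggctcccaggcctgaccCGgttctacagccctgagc

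Mean methylation did not separate the groups in any class of CpG. Over all CpGs the pooled methylation was 37.5% ± 0.633 in AME-d21, against 37.8% ± 0.510 in Con-d21 (mean ± SD of 5 libraries each, as for all values of groups here), a difference that the exact permutation test did not distinguish from 0 (p = 0.476 before and 0.844 after adjustment over 8 classes, two-sided; the smallest p that 5 against 5 allows is 0.00794). CpG islands were at 6.55% ± 0.385 in AME-d21 and at 6.75% ± 0.253 in Con-d21, and CpGs within 1 kb of a TSS at 6.70% ± 0.537 and 6.91% ± 0.295 in the same order of groups. CpGs outside islands and shores were at 73.5% ± 0.379 in AME-d21 and at 73.5% ± 0.225 in Con-d21. The exact p values of the 8 classes ran between 0.349 and 0.921, all of them 0.844 or more after adjustment. When every CpG was given equal weight, whatever its reads, the mean over all CpGs was 39.9% ± 0.164 in AME-d21 and 39.9% ± 0.118 in Con-d21. The library labelled AME-d21 replicate 4 was the lowest of the 5 AME-d21 libraries over all CpGs (36.9%), in islands (6.00%) and around TSSs (5.78%). Without it the difference over all CpGs was -0.08 points, against -0.26 points with it. The sign changed without it around TSSs, from -0.205 to 0.0255 points, and between genes, from -0.133 to 0.0707 points.

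**Figure D1:**
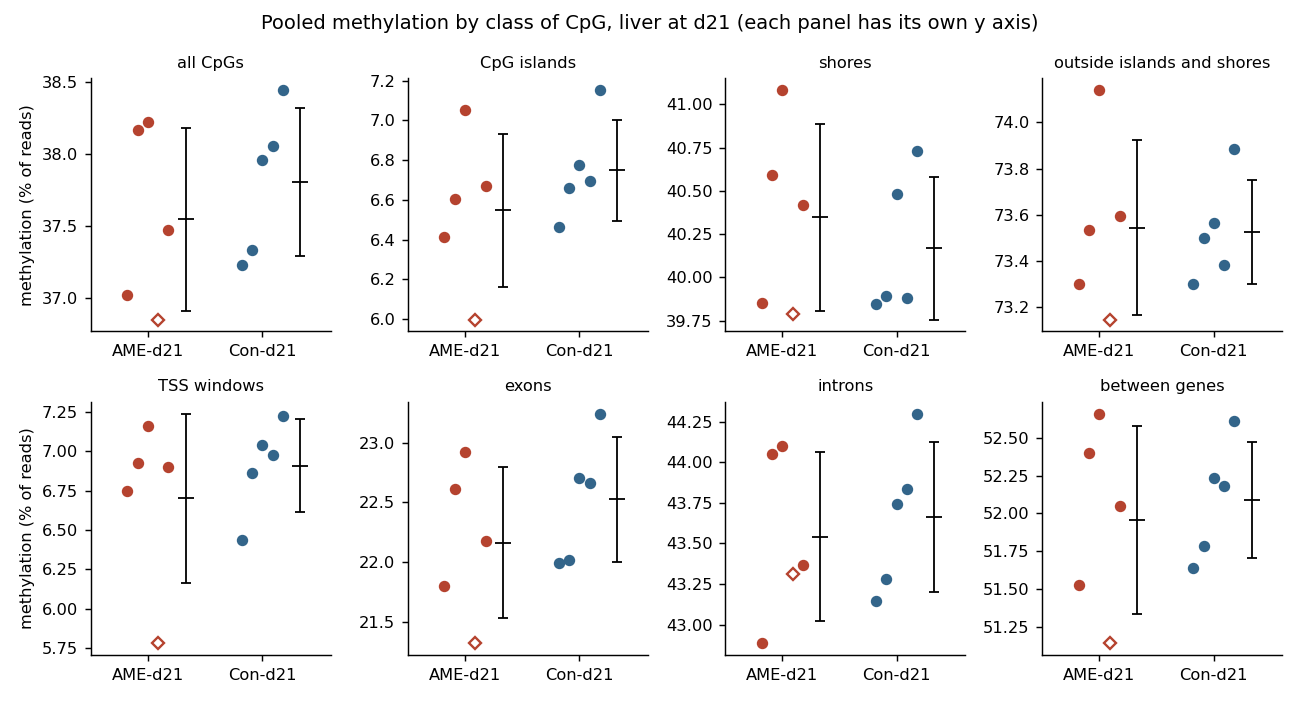
Pooled methylation (percent of reads methylated, y axis, a separate scale in each panel) of 8 classes of CpG in each of the 5 AME-d21 (left) and 5 Con-d21 (right) libraries. Open diamonds mark the library labelled AME-d21 replicate 4 and bars the mean ± SD. The groups overlap in every panel, and over all CpGs the means are 37.5% and 37.8%.

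Differences at single sites went about as often up as down. Of the 648895 CpGs, 7960 were at least 10 percentage points higher and 8035 at least 10 points lower in the mean of AME-d21 than in that of Con-d21 (2.46% of all in both directions). Nearly all of these, 7698 and 7735, lay at CpGs between 10% and 90% methylated, where the median SD between AME-d21 libraries was 7.73 points and that between Con-d21 libraries 7.27 points. Bins behaved alike, with 1955 at least 10 points higher and 2033 at least 10 points lower (2.34% of bins). By contrast 17 of 13650 promoters (0.125%) and 19 of 16435 gene bodies (0.116%) reached 10 points. Since whole liver was read, fewer cells of a type and less methylation in each of its cells cannot be told apart.

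The thresholds of the study's methods, a p under 0.001 and a difference of at least 10 points, were used here. With them the quasi-binomial test called 2 CpGs, both lower in AME-d21 (0.000308% of CpGs tested), and 0 after Benjamini-Hochberg adjustment (0.0%). The study's methods name neither the test behind that p nor a minimum of reads. The counts here are therefore not a repeat of the study's own. Unadjusted p values under 0.05 were found at 10329 CpGs (1.59%), 5269 of them higher (0.812%) and 5060 lower (0.78%) in AME-d21. At the same thresholds limma per CpG called 309 CpGs (0.0476%, 133 of them higher) and the likelihood-ratio test, which leaves out the spread between animals, 696 (0.107%, 340 of them higher). After adjustment limma called 0 CpGs and the likelihood-ratio test 124 (0.0191%). Unadjusted p values under 0.05 made up 4.89% of CpGs with limma and 4.98% with the likelihood-ratio test, against 1.59% with the quasi-binomial test. The quasi-binomial test was thus the strictest, and its few calls do not measure how few CpGs differ. For bins, promoters and gene bodies limma called 0 of each at an adjusted p of 0.05, and the quasi-binomial test also called 0 of each, with unadjusted p values under 0.05 for 4442 bins, 404 promoters and 576 bodies. Unadjusted limma p values under 0.05 were found for 8650 bins (5.07%, of which 2.65% higher and 2.42% lower in AME-d21), 726 promoters (5.32%) and 749 gene bodies (4.56%).

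The direction of these unadjusted counts depended on the scale for promoters and gene bodies. On the percent scale it also depended on the library labelled AME-d21 replicate 4. On the log2 ratio of methylated to unmethylated reads, with 1 read added to each, 463 promoters were higher (3.39%) and 263 lower (1.93%) in AME-d21, and 446 gene bodies higher (2.71%) and 303 lower (1.84%). On the percent scale 332 promoters were higher and 366 lower, and 353 gene bodies higher and 361 lower. The added read gives a feature with no methylated read a higher log ratio in a library with fewer reads, and the median library held 28795847 reads in AME-d21 and 33405342 in Con-d21. The part of this in the counts was not tested. With 0.5 added in place of 1, 410 promoters were higher and 303 lower, and 416 gene bodies higher and 308 lower. Without the library labelled AME-d21 replicate 4 the log ratio counts were 595 higher and 241 lower for promoters, and 624 higher and 348 lower for gene bodies. The percent scale counts without it were 408 higher and 259 lower for promoters, and 535 higher and 405 lower for gene bodies. For bins the log ratio counts were 4524 higher and 4126 lower with all libraries, and 5211 higher and 3958 lower without that library. The percent scale counts for bins were 4443 higher and 4154 lower with it, and 4757 higher and 4078 lower without it. Among bins of at least 3 CpGs the log ratio counts with all libraries were 2419 higher and 1685 lower.

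The intervals limit how large a difference these data leave room for. The 95% interval of the difference, from limma on the percent scale (chosen after seeing the data), lay wholly within 10 points of 0 for 95.8% of promoters, 91.1% of gene bodies and 62.1% of bins. The median distance from the estimate to either bound was 0.331 points for promoters, 3.27 points for gene bodies and 5.89 points for bins. At promoters between 10% and 90% methylated it lay within 10 points for 71.0% of 1955. At bins of that range it did so for 37.2% of 89229, with a median distance of 8.57 points, so that differences under about 10 points at such bins were mostly not detectable at this depth. The intervals are not adjusted for the number of bins. Larger differences were not called either, such as -16.9 points at the bin of 6030440G07Rik (limma adjusted p = 0.971). The lack of calls therefore does not show that larger differences are absent. Of the bins of that range 1897 were at least 10 points higher and 1960 at least 10 points lower in AME-d21. On the log2 ratio scale limma called 0 bins after adjustment.

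The CpG of Cit, 1 of the 2 called, is shown above in its 102 bases. It was 38.5%, 33.3%, 21.7%, 31.7% and 29.2% methylated in AME-d21 replicates 1 to 5, against 67.9%, 64.3%, 60.6%, 69.2% and 66.7% in Con-d21 replicates 1 to 5. The groups were far apart, with a mean of 30.9% ± 6.14 in AME-d21 and 65.7% ± 3.39 in Con-d21 at 13 to 41 reads per library (quasi-binomial model fitted to each CpG by itself, adjusted p = 1 over all CpGs). Its neighbour 2 bp downstream was 54.6% ± 12.4 in AME-d21 and 77.7% ± 6.61 in Con-d21, and the groups overlapped there, AME-d21 replicate 2 being at 71.4% and Con-d21 replicate 3 at 69.7%. The other 5 tested CpGs within 200 bp had differences between -10.7 and 0.311 points. The large differences were thus at this pair of adjacent CpGs, and the other CpGs differed less. In newborn liver the same CpG was at 65.5% ± 13.7 in AME-d0 against 73.4% ± 15.4 in Con-d0 (exact permutation test, p = 0.429), close to the level of Con-d21.

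The CpG of Gm48651 was 88.9%, 83.9%, 91.4%, 86.7% and 92.5% methylated in AME-d21 replicates 1 to 5 and 100% in each Con-d21 library, at 18 to 45 reads. Every AME-d21 library thus held some unmethylated reads and no Con-d21 library held any (quasi-binomial adjusted p = 1), although a count of 0 at 23 reads, the lowest depth there in Con-d21, allows a share of up to 13%. The 5 other tested CpGs within 200 bp differed by -1.37 to 2.16 points. At d0 the CpG was at 85.4% ± 6.80 in AME-d0 against 87.2% ± 5.60 in Con-d0, both below 100%. Without the library labelled AME-d21 replicate 4 neither CpG was called, while the differences were -35.05 points at Cit, against -34.85 points with it, and -10.8 points at Gm48651, against -11.3 points with it. Leaving out any other single library also removed the call of Gm48651, and that of Cit in every case but AME-d21 replicate 1.

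In 1133 bins (0.664%) the 2 groups did not overlap, 559 with AME-d21 above (0.328%) and 574 with AME-d21 below (0.337%). Among the 80668 bins of at least 3 CpGs, 26 had groups that did not overlap together with an unadjusted limma p under 0.001, 16 with AME-d21 above and 10 below. Over all bins 155 (0.0909%) had such a p, and the smallest adjusted p was 0.933. The 8 with the largest difference in each direction are described. They were chosen by that difference, and no test is read from it.

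The bin with the largest negative difference lay in an intron of 6030440G07Rik, 14502 bp from its TSS. Its 3 CpGs together were 68.3%, 77.4%, 66.7%, 61.8% and 59.3% methylated in AME-d21 replicates 1 to 5, against 80.0%, 79.8%, 84.6%, 87.5% and 86.2% in Con-d21. All 3 CpGs were lower in the AME-d21 mean, by 13.5 to 20.6 points. Both groups stood well above newborn liver, where the bin was at 48.2% ± 4.75 in AME-d0 against 49.2% ± 2.19 in Con-d0 (exact p = 0.675). The bin between genes, far upstream of Gm28187, was at 79.4%, 86.7%, 73.7%, 88.6% and 85.5% in AME-d21 and at 94.0%, 97.5%, 94.7%, 92.1% and 95.6% in Con-d21. Its newborn levels, 83.8% ± 8.02 in AME-d0 against 81.7% ± 3.40 in Con-d0, were like those of AME-d21.

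A bin in an intron of Sun5, the gene of a nuclear envelope protein of spermatids, averaged 88.1% ± 0.904 in AME-d21 and 94.3% ± 1.81 in Con-d21. It lies in a stretch of CAG-like repeats, where short reads can be misplaced. A bin 30499 bp downstream of the start of Mup8, of the major urinary protein family, averaged 92.8% ± 4.09 in AME-d21 and 98.7% ± 0.808 in Con-d21, and since this family has many similar copies its reads may be uncertain in place, which was not tested. The other 4 lower bins were almost free of methylation. The bin in the exon of Adrb3, the gene of the β3-adrenergic receptor of fat tissue, held 0% in AME-d21 replicates 1, 2 and 5, 0.337% in replicate 3 and 0.284% in replicate 4, against 1.31%, 2.27%, 1.14%, 2.17% and 1.40% in Con-d21. Of its 11 CpGs, 10 were lower in AME-d21, and at d0 it was at 0.535% ± 0.355 in AME-d0 against 0.698% ± 0.436 in Con-d0. A CpG island bin just upstream of the start of Hs3st3b1, which encodes a heparan sulfate sulfotransferase, averaged 0.794% ± 0.513 in AME-d21 and 2.66% ± 0.690 in Con-d21. A bin upstream of Exoc3l4 was at 0% in all AME-d21 libraries, where a count of 0 in the shallowest, of 109 reads, allows up to 2.75%. In Con-d21 this bin was at 1.53% ± 1.02. A bin in an exon of Serinc2 averaged 0.384% ± 0.357 in AME-d21 and 1.69% ± 0.662 in Con-d21.

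Of the 8 bins with AME-d21 above, 6 lay below 10% methylation and 5 of these in CpG islands. At the start of Mycbpap the bin held 9.30%, 6.80%, 7.53%, 11.2% and 6.52% in AME-d21 replicates 1 to 5 and 1.94%, 4.20%, 3.41%, 1.74% and 4.58% in Con-d21. Most of this came from 1 of its 4 CpGs, which differed by 16.4 points. In the exon of Slc3a2, which encodes the heavy chain shared by several amino acid transporters, the bin held 6.58%, 5.02%, 8.16%, 5.56% and 7.26% in AME-d21 and 1.96%, 2.22%, 1.39%, 3.60% and 3.05% in Con-d21. At d0 it was at 0.309% ± 0.524 in AME-d0 against 0.187% ± 0.418 in Con-d0, so that both groups had more methylation there at d21 than the newborn animals of their group.

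The bin of Trps1, the gene of a GATA-type repressor of transcription, was the only chosen bin with an exact p under 0.05 in the newborn animals. It held 3.65%, 1.34%, 4.55%, 4.30% and 2.35% in AME-d21 and 0.926%, 0.355%, 0.816%, 0.877% and 0.926% in Con-d21, and all 13 of its CpGs had a higher mean in AME-d21. At d0 it averaged 1.61% ± 0.427 in AME-d0 against 0.460% ± 0.339 in Con-d0, with no overlap (exact permutation test, p = 0.00794, the smallest possible). After adjustment over the 80 regions looked at again at d0 the p was 0.635. A bin in an exon of 1700025A08Rik, upstream of Shisa3, averaged 7.08% ± 2.13 in AME-d21 and 2.42% ± 0.849 in Con-d21. One in an exon of Phlpp1, a phosphatase that acts on Akt, averaged 3.47% ± 1.68 in AME-d21 and 0.775% ± 0.578 in Con-d21, and one in an exon of Hspa12a 2.52% ± 1.36 in AME-d21 and 0.585% ± 0.348 in Con-d21. The 2 that were nearly fully methylated lay in introns of Arpc3, a subunit of the actin-nucleating Arp2/3 complex (97.5% ± 1.54 in AME-d21 and 92.9% ± 1.42 in Con-d21), and of Gpc6, a glypican of the cell surface (96.8% ± 0.849 in AME-d21 and 92.5% ± 0.800 in Con-d21).

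**Figure D2:**
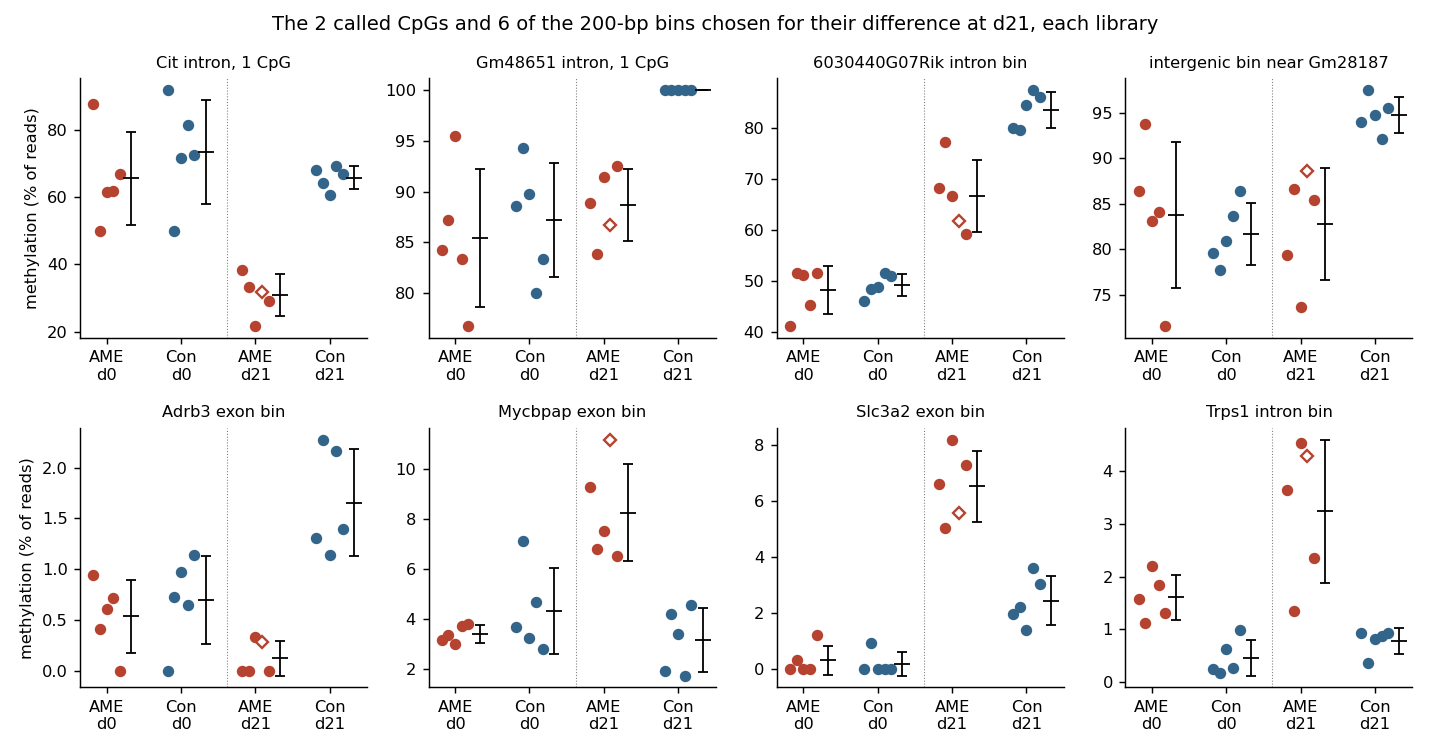
Methylation (percent of reads, y axis, a separate scale in each panel) of the 2 called CpGs and 6 bins in every library of AME-d0, Con-d0, AME-d21 and Con-d21, with the mean ± SD beside each group and open diamonds for the library labelled AME-d21 replicate 4. The d21 groups do not overlap by the way the sites were chosen. The newborn groups overlap in every panel except Trps1, where they average 1.61% in AME-d0 against 0.460% in Con-d0.

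On the percent scale limma called 2 bins, both at levels near 0. One, in an intron of Phldb2 and a CpG island (chr16:45844001-45844200, 2 CpGs), held 4.35%, 4.69%, 4.29%, 4.63% and 3.92% in AME-d21 and 1.09% in Con-d21 replicate 2 but 0% in the other 4 Con-d21 libraries, at 46 reads or more. The other, in an exon of Gm49417 within Sorbs3 (chr14:70206801-70207000, 1 CpG), held 0% in each AME-d21 library and 3.03% to 4.55% in Con-d21, at 17 to 33 reads. Among the libraries at 0, the shallowest had 46 reads at the Phldb2 bin, where a count of 0 allows up to 6.52%, and 17 reads at the Gm49417 bin, where it allows up to 17.6%. On the log2 ratio scale the adjusted p was 0.933 for the Phldb2 bin and 0.971 for the Gm49417 bin.

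Among promoters, 75 (0.549%) had groups that did not overlap, 37 with AME-d21 above (0.271%) and 38 below (0.278%). The rule for naming them, no overlap with an unadjusted p under 0.01 and at least 5 points, was met by 2, of 3 and 4 CpGs. A p under 0.01 alone was found for 1.26% of promoters and 0.894% of gene bodies. The promoter of Gm10369 (chr5:134675490-134677490) was at 62.3%, 61.0%, 65.6%, 69.2% and 59.5% in AME-d21, against 70.9%, 76.1%, 79.1%, 70.0% and 80.0% in Con-d21 (limma adjusted p = 0.782). At d0 Gm10369 was at 64.1% ± 3.06 in AME-d0 against 63.3% ± 7.76 in Con-d0 (exact p = 0.786). The promoter of Olfr705, an olfactory receptor gene (chr7:106875891-106877891), was at 85.5%, 79.8%, 83.8%, 84.2% and 81.8% in AME-d21, against 68.6%, 73.1%, 74.6%, 69.6% and 71.2% in Con-d21 (adjusted p = 0.704). At d0 Olfr705 was at 77.9% ± 6.03 in AME-d0 against 72.3% ± 2.92 in Con-d0 (exact p = 0.0952).

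Gene bodies had 105 cases of groups that did not overlap (0.639%), 0.298% with AME-d21 above and 0.341% below, and 24 met the same rule, 15 with AME-d21 above. In 14 of these 24 the difference was under 2 points once each CpG had equal weight, and in 5 it was still at least 5 points in the same direction. Of the 12 named, Gm15527, Clca3b and Nrros kept a difference of at least 5 points, and that of the other 9 fell under 2 points. The body of Nrros, which encodes a TGF-β anchoring protein of myeloid cells, was at 72.3%, 69.3%, 76.6%, 77.9% and 66.4% in AME-d21 and at 64.9%, 57.1%, 64.5%, 63.7% and 52.0% in Con-d21. The difference was 12.1 points with pooled reads and 12.0 points with equal weights, and all 7 CpGs were higher in AME-d21. In newborn liver this body was at only 15.9% ± 4.68 in AME-d0 against 14.3% ± 5.27 in Con-d0. The body of Gm15527 averaged 53.9% ± 3.62 in AME-d21 and 66.6% ± 3.60 in Con-d21, with all 5 CpGs lower, and that of Clca3b, a chloride channel accessory gene, 65.6% ± 1.81 in AME-d21 and 71.6% ± 2.30 in Con-d21, with 10 of 11 CpGs lower.

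In the other 9 the pooled value moved together with how reads were spread over the CpGs, whose part was not tested. The body of Dot1l, the gene of the histone H3 lysine methyltransferase DOT1L, was at 33.5%, 32.4%, 33.7%, 36.1% and 27.7% in AME-d21 and at 38.9%, 43.3%, 36.3%, 41.5% and 45.7% in Con-d21 with pooled reads. With equal weights its 63 CpGs averaged 31.6% in AME-d21 and 31.4% in Con-d21. CpGs under 20% methylated took 63.9% ± 3.76 of its reads in AME-d21 and 54.5% ± 3.87 in Con-d21. The body of Gjb2, which encodes the hepatocyte gap junction protein connexin 26, was 10.7 points higher in AME-d21 with pooled reads and 1.73 points higher with equal weights. The difference at equal weights was small but beyond the SDs, with 24.3% ± 0.556 in AME-d21 and 22.6% ± 0.476 in Con-d21. The lowly methylated CpGs took 48.1% ± 7.45 of the reads of Gjb2 in AME-d21 and 58.4% ± 4.14 in Con-d21. Likewise the pooled difference of -8.91 points at Dstyk, a kinase gene, became -0.556 points. At Castor2, of a family of mTORC1 regulators, it was 10.1 points pooled and -0.362 points weighted equally. At Dhx34, an RNA helicase gene of nonsense-mediated decay, it was 8.26 points pooled and -0.333 points weighted equally. Mapk8ip2, Ccdc122, Ltn1 and Gm26810 followed the same pattern, with differences between -1.01 and 0.677 points at equal weights.

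**Figure D3:**
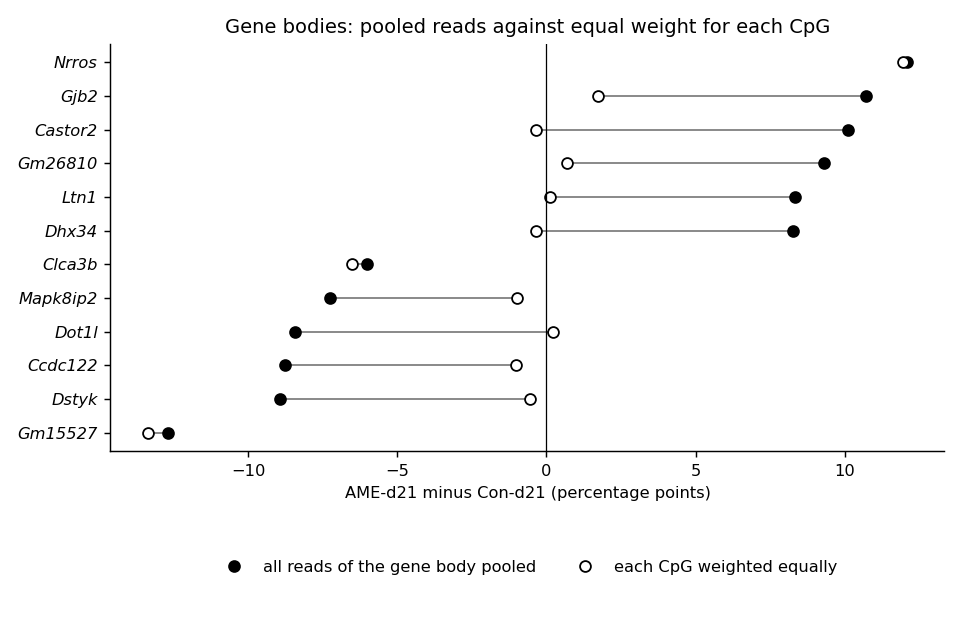
Difference between AME-d21 and Con-d21 (percentage points, x axis) for the 12 gene bodies named by the rule, with all reads pooled (filled) and with each CpG weighted equally (open). Nrros, Gm15527 and Clca3b keep their place, while the open points of the other 9 lie within 2 points of 0.

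The genes that the study names as altered in expression or uses in its primer list were looked at whatever their values. Of Fasn (fatty acid synthase), Acaca (acetyl-CoA carboxylase), Elovl3 (a fatty acid elongase), Lpin1 (a phosphatidate phosphatase), Il1b and Ces1g, the promoters of the first 3 and the bodies of Fasn, Acaca and Lpin1 had enough CpGs. The Fasn promoter, with 48 CpGs, was at 0.377%, 0.0594%, 0.177%, 0.0754% and 0.197% in AME-d21 and at 0.234%, 0.213%, 0.0791%, 0.161% and 0.161% in Con-d21. Both groups were practically unmethylated, and the interval of the difference ran from -0.130 to 0.145 points. The Fasn body averaged 34.3% ± 7.88 in AME-d21 and 33.2% ± 3.503 in Con-d21, the library labelled AME-d21 replicate 4 being highest with 47.5%. The interval ran from -7.14 to 9.30 points, and without that library the difference was -2.23 points, against 1.08 points with it. The Acaca promoter averaged 2.09% ± 1.95 in AME-d21 and 2.59% ± 1.02 in Con-d21, and its body 11.2% ± 4.50 in AME-d21 and 14.6% ± 1.25 in Con-d21 (interval -7.75 to 0.796 points). The difference of -3.48 points at the Acaca body was -2.13 points without replicate 4. The Elovl3 promoter was at 1.03% ± 1.54 in AME-d21 and 1.70% ± 1.89 in Con-d21. The Lpin1 body was at 38.8% ± 4.65 in AME-d21 and 37.3% ± 1.90 in Con-d21, and the difference of 1.498 points became -0.398 points without replicate 4. All of these had a limma adjusted p of 0.983 or more. Equal weights gave Fasn body means of 39.5% in AME-d21 and 39.4% in Con-d21. With equal weights and all libraries the difference was -0.426 points at the Acaca body, against -3.48 points with pooled reads. At the Lpin1 body it was 1.14 points with equal weights.

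Of 386 genes in 22 lists, 165 promoters and 246 gene bodies were tested, and none passed the adjusted p. Unadjusted p values under 0.05 were found for 8 promoters, 4 higher and 4 lower in AME-d21 (4.85%, where all promoters gave 5.32%), and for 6 gene bodies, 1 higher and 5 lower (2.44%, where all bodies gave 4.56%). The interval of the difference lay within 10 points of 0 for 148 of the promoters and 210 of the bodies.

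The 17 tested promoters of cholesterol synthesis and uptake were low in methylation in both groups, with a median of 0.092% in AME-d21 and 0.106% in Con-d21, and their intervals all lay within 10 points. The highest was that of Lss, the gene of lanosterol synthase, with 5.90% ± 2.09 in AME-d21 and 5.62% ± 1.10 in Con-d21. The promoter of Msmo1, a sterol oxidase gene, was at 0% in all AME-d21 libraries and at 0.124% ± 0.114 in Con-d21 (limma adjusted p = 0.850), and a count of 0 in its shallowest library allows 0.333%. The 18 tested promoters of fatty acid and triglyceride synthesis had a median of 0.163% in AME-d21 and 0.255% in Con-d21, Acacb being the exception with 20.5% ± 3.26 in AME-d21 and 19.9% ± 1.40 in Con-d21. In the body of Scd1, the stearoyl-CoA desaturase gene, methylation was 84.9%, 77.5%, 84.4%, 83.6% and 78.9% in AME-d21, against 86.1%, 85.9%, 86.7%, 85.0% and 84.5% in Con-d21. The groups overlapped through AME-d21 replicate 1, and the limma adjusted p was 1. Among 14 tested promoters of fatty acid oxidation and ketogenesis the smallest p was that of Acaa1b, which encodes a peroxisomal thiolase, with 0.281% ± 0.350 in AME-d21 and 1.32% ± 0.510 in Con-d21 (adjusted p = 0.693). At d0 it was at 1.56% ± 0.441 in AME-d0 against 1.18% ± 0.741 in Con-d0, the other way round (exact p = 0.357).

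In the lists of glucose metabolism and insulin signalling, bile acids, the circadian clock and autosomal sex-biased liver genes the promoters that reached an unadjusted p under 0.05 were all below 0.6%. The promoter of Insr, the insulin receptor gene, had methylated reads in 1 of 10 libraries, AME-d21 replicate 5 with 0.167%. That of Bhlhe40, a clock repressor, averaged 0.218% ± 0.135 in AME-d21 and 0.0289% ± 0.0647 in Con-d21, and that of Nr1d2, which encodes REV-ERBβ, 0.101% ± 0.0561 in AME-d21 and 0.0260% ± 0.0377 in Con-d21. Fgfr4, the hepatocyte receptor of intestinal FGF, was at 0.529% ± 0.164 in AME-d21 and 0.274% ± 0.230 in Con-d21, and Stat5b, which carries the growth hormone signal, at 0.0776% ± 0.0586 in AME-d21 and 0.316% ± 0.258 in Con-d21. Stat5b stands in the sex-biased list, whose 9 tested bodies averaged 47.3% to 52.5% in AME-d21 libraries, the lowest being the library labelled AME-d21 replicate 4, and 51.4% to 52.8% in Con-d21 libraries. Of the 246 listed bodies 2, Insr and Uhrf1, had groups that did not overlap, where 0.639% of all bodies did so. The body of Insr averaged 43.2% ± 1.37 in AME-d21 and 39.2% ± 1.79 in Con-d21 (limma adjusted p = 1). Of the stress hormone genes, 7 promoters and 10 bodies were tested and none had an unadjusted p under 0.05. The list of DNA methylation and one-carbon genes had no such promoter among 16 and no such body among 23. The body of Uhrf1, which encodes the partner of the maintenance methyltransferase, averaged 27.8% ± 3.95 in AME-d21 and 31.98% ± 0.948 in Con-d21 with pooled reads, and 29.4% in AME-d21 and 29.3% in Con-d21 with equal weights. Its pooled difference was -4.23 points, and -2.53 points without replicate 4.

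**Figure D4:**
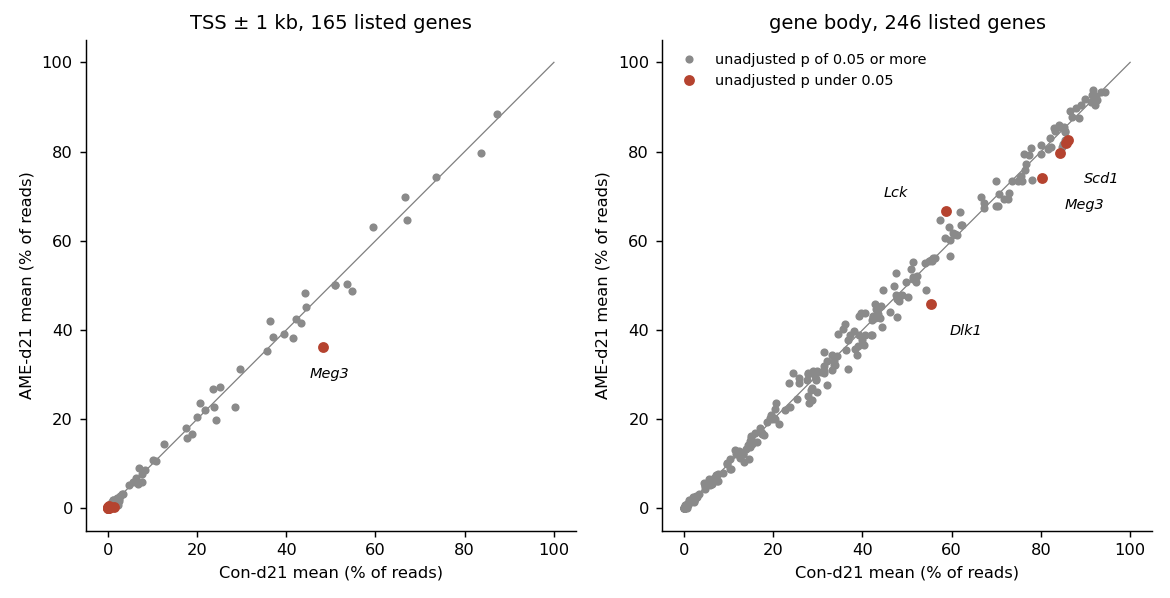
Mean methylation in AME-d21 (y axis, percent of reads) against Con-d21 (x axis) for the listed genes, promoters on the left and gene bodies on the right, with the line of equal values. Red points have an unadjusted p under 0.05, and none passes the adjusted p. Meg3 and Dlk1 are the farthest below the line, with promoter and body differences of -12.0 and -9.56 points.

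The imprinted genes Dlk1 and Meg3, neighbours on chromosome 12 that are expressed from the paternal and the maternal copy, had the largest differences of all listed promoters and bodies. The 17 tested imprinted promoters had a median of 38.1% in AME-d21 and 39.4% in Con-d21. The promoter of Meg3 was at 43.0%, 37.7%, 28.5%, 44.0% and 28.2% in AME-d21 and at 60.6%, 39.7%, 42.5%, 52.1% and 46.3% in Con-d21. The groups overlapped, with a difference of -12.0 points (interval -22.8 to -1.21, limma adjusted p = 0.920). Its 9 CpGs lay in 2 adjoining bins around the TSS (chr12:109540801-109541000 and chr12:109541001-109541200), shown here because they hold every CpG behind this value.
Meg3 upstream: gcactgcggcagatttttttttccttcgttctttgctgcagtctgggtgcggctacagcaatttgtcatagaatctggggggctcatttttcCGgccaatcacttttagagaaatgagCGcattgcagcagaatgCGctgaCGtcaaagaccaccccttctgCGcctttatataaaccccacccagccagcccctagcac
Meg3 downstream: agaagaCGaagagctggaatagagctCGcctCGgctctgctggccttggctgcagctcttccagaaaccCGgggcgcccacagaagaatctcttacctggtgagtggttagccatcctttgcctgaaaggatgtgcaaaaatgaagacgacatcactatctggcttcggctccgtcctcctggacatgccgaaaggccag

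The bin upstream averaged 35.9% ± 7.96 in AME-d21 and 47.9% ± 8.34 in Con-d21, and the bin downstream 36.8% ± 7.28 in AME-d21 and 48.8% ± 8.67 in Con-d21. The Dlk1 body was at 41.3%, 44.4%, 45.2%, 44.3% and 54.2% in AME-d21 and at 52.6%, 50%, 60.3%, 53.8% and 60.5% in Con-d21. AME-d21 replicate 5 alone overlapped with Con-d21, and the difference of -9.56 points had an interval of -15.9 to -3.20 (limma adjusted p = 1). The Meg3 body, named after its value was seen, averaged 74.1% ± 1.58 in AME-d21 and 80.3% ± 4.26 in Con-d21. Of 19 bins tested between 2 kb before Dlk1 and 2 kb after Meg3, 15 were lower in the AME-d21 mean and 4 higher, with a median difference of -2.78 points. An unadjusted p under 0.05 was found in 3, all lower, with limma adjusted p values of 0.971 to 0.975. Neighbouring bins share animals and often fragments, so that these counts are no test. Without the library labelled AME-d21 replicate 4 the differences were -13.9 points at the Meg3 promoter and -9.16 points in the Dlk1 body. In newborn liver the Meg3 promoter was at 40.8% ± 9.20 in AME-d0 against 31.0% ± 12.0 in Con-d0 (exact p = 0.175), and the Dlk1 body at 33.5% ± 9.22 in AME-d0 against 42.4% ± 12.0 in Con-d0 (exact p = 0.206). The sign at d0 was thus opposite at Meg3 and equal at Dlk1. The interaction of treatment and age had an unadjusted limma p of 0.0157 at the Meg3 promoter (adjusted p = 0.961). The other imprinted promoters differed by -5.86 points (Nnat) to 5.66 points (Kcnq1ot1), none with an unadjusted p under 0.05. Nnat was at 48.8% ± 3.67 in AME-d21 and 54.6% ± 6.07 in Con-d21, and Kcnq1ot1 at 42.1% ± 9.97 in AME-d21 and 36.4% ± 6.03 in Con-d21. Closer to equal were, among others, Airn with 39.2% ± 6.42 in AME-d21 and 39.4% ± 6.73 in Con-d21 and Peg10 with 50.05% ± 5.14 in AME-d21 and 50.9% ± 9.53 in Con-d21.

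**Figure D5:**
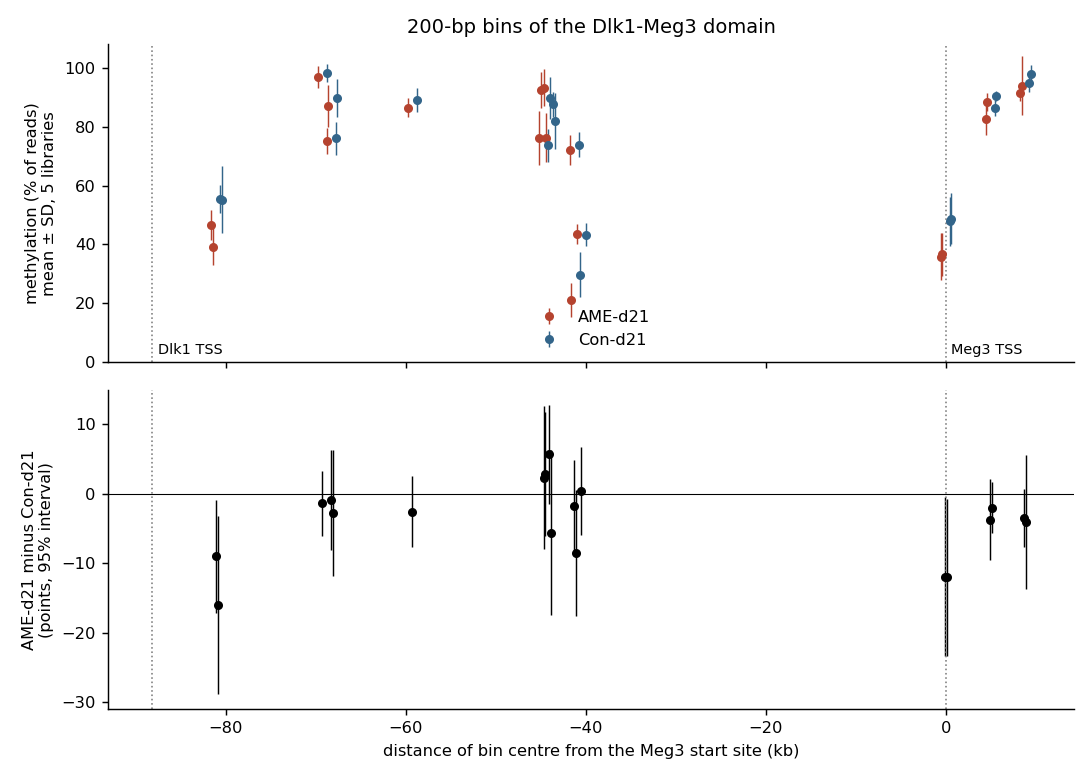
The 19 tested bins of the Dlk1-Meg3 domain by distance from the Meg3 TSS (x axis, kb). The upper panel gives the mean ± SD of AME-d21 and Con-d21 (percent of reads, drawn slightly apart), the lower panel the difference with its 95% interval. The 2 bins at the Meg3 TSS lie near -12.0 points and most intervals elsewhere include 0.

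Marker genes of the cell types of liver were at like levels in both groups. The mean over the 4 tested promoters of 15 hepatocyte markers was 19.5% to 26.7% in AME-d21 libraries and 19.9% to 27.2% in Con-d21 libraries, and over 6 bodies 33.4% to 37.2% in AME-d21 and 31.0% to 36.4% in Con-d21. The 10 tested bodies of haematopoietic and myeloid markers averaged 49.96% to 53.0% in AME-d21 and 50.6% to 53.8% in Con-d21. For the endothelial list (9 bodies) the means were 72.7% to 74.3% in AME-d21 and 71.4% to 74.4% in Con-d21, and for the stellate cell list (8 bodies) 22.6% to 25.9% in AME-d21 and 22.7% to 26.7% in Con-d21. The 4 Kupffer cell bodies ranged wider in AME-d21, 64.4% to 70.1%, than in Con-d21, 67.8% to 68.6%. The range of the list mean overlapped between the groups in these 6 comparisons. The library labelled AME-d21 replicate 4 gave the low end of AME-d21 for the hepatocyte promoters and bodies, the stellate cell bodies and the Kupffer cell bodies. The promoter of Hnf4a, a regulator of hepatocyte identity, was at 16.6% in AME-d21 and 18.8% in Con-d21, and its difference of -2.16 points was -0.32 points without replicate 4. That of Cd79b, a B cell receptor gene, was at 74.3% in AME-d21 and 73.6% in Con-d21. Of the 28 promoters and 53 bodies tested in the 8 marker lists, 2 bodies had an unadjusted p under 0.05, where 4.56% of all bodies did so. They were that of Ermap, an erythroid membrane gene (79.7% ± 1.53 in AME-d21 and 84.3% ± 2.63 in Con-d21), and that of the T cell kinase gene Lck (66.8% ± 4.97 in AME-d21 and 58.8% ± 6.31 in Con-d21), whose difference of 7.96 points was 0.202 points with equal weights. The share of a cell type in these livers was not measured, and its part in any difference was not tested.

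The newborn animals took no part in choosing regions at d21. Of the 80 named CpGs, bins, promoters and bodies, 42 had the same sign at d0, 5 had an exact p under 0.05 and 0 had one after adjustment (exact permutation test, in which the smallest possible p, 0.00794, becomes 0.635 after adjustment over 80 when reached once). Of the 32 chosen for their difference at d21, 20 had the same sign and 2 an exact p under 0.05, the bin of Trps1 and the body of Dstyk (13.5% ± 3.30 in AME-d0 against 19.2% ± 3.15 in Con-d0, p = 0.0238), and at Dstyk the pooled difference at d21 was not seen with equal weights. The interaction of treatment and age was tested over all 20 libraries. Limma called 0 of 153940 bins, 0 of 13374 promoters and 0 of 15973 gene bodies, with unadjusted p values under 0.05 for 7878 (5.12%), 672 (5.02%) and 967 (6.05%) of them in that order. Among these the AME minus control difference was higher at d21 than at d0 in 5595 bins, 407 promoters and 802 bodies. It was lower in 2283 bins, 265 promoters and 165 bodies. Without the library labelled AME-d21 replicate 4 these counts were 6067, 471 and 1009 higher, and 2268, 236 and 189 lower. These counts are on the log2 ratio scale with 1 read added, and the cause of their direction was not tested.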

How the data were processed

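RRBS libraries of d21 liver, 5 AME-d21 and 5 Con-d21, were compared, with groups from the sample labels. For each CpG of mm10 the authors deposited counts of methylated and unmethylated reads, not normalized, and their percent methylation, which was recomputed here from the counts. FastQC, Trim Galore, Bismark and BWA are listed in the submitters' notes on processing. Deduplication and strand merging are not given in the sources used here, and remaining PCR duplicates would overstate the depth. Limits from counts of 0 cover counting error only.

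Kept were autosomal CpGs that every one of the 10 libraries covered with 10 reads or more, and genes were those of GENCODE on GRCm38. An island was a 500 bp window of 55% or more G + C with a CpG observed/expected of 0.65 or more, and shores were the flanking 2 kb. The per-CpG test was a quasi-binomial logistic F test (overdispersion at least 1). For summed features limma 3.58.1 (R 4.3.3) was run on the log2 ratio of methylated to unmethylated reads, 1 added to each, adjusted over all features. Python 3.11.15 and scipy 1.17.1 were used, and scripts were tested on simulated data. Named were the called CpGs, up to 8 bins per direction (at least 3 CpGs, no overlap, p under 0.001), up to 6 promoters and bodies per direction (no overlap, p under 0.01, at least 5 points), the study's genes, and members of the lists, of which the text gives those with the smallest p and examples picked after values were seen. The members, lists and rules were chosen with earlier results of these data known. Same-numbered libraries did not deviate together at single CpGs (correlations -0.0021 to 0.0018). Single CpGs held a median of 29 reads per library, where counting error can hide a shared deviation. These correlations therefore cannot decide whether the numbers pair libraries. Alternatives changed the read minimum, test, added read, window and weights, and left out each library.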

Additional observations from a re-analysis of the deposited data

Results flagged for a closer look

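A library far from the other 4 of its group, by Dixon's test at the 95% level, was found in 16 of 180 groups of values checked, where chance gives about 1 in 20, and 4 of the 16 concern the library labelled AME-d21 replicate 4. That library had 2.88 X-chromosome reads per 100 autosomal reads and 16.2 Y short-arm reads per 1000000 reads. It was also lowest in the pooled body of Dstyk, with 13.5% where the other AME-d21 libraries had 17.9% to 19.1%, and in that of Uhrf1, with 20.95% where the others had 27.65% to 30.2%. On its X chromosome, outside the comparison, 59.4% of reads were methylated, where the Con-d21 libraries had 51.1% to 52.4%.

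Among the bins, AME-d21 replicate 2 was low in the Gpc6 intron (95.3%), AME-d21 replicate 1 high in the Phlpp1 exon (6.37%) and Con-d21 replicate 2 low in the Trps1 intron (0.355%). The pooled body of Dhx34 was low in Con-d21 replicate 3 (10.6%), and that of Angptl4 high in the same library (2.80%). The remaining 7 are regions of little methylation in which 1 library was the highest of its group. These were the Klf1 promoter in AME-d21 replicate 5 (2.08%) and in Con-d21 replicate 5 (1%), the Insig1 body in AME-d21 replicate 3 (0.239%), the Acss2 promoter in Con-d21 replicate 5 (0.143%), the Insr promoter in AME-d21 replicate 5 (0.167%), the Bhlhe40 promoter in Con-d21 replicate 2 (0.145%) and the Smad3 promoter in AME-d21 replicate 1 (0.141%). No cause was tested for any of them.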

How the results depend on the processing

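The count of called CpGs depended on the test. It was 2 as reported, 0 with at least 20 reads, 0 at an adjusted p of 0.05, 309 with limma, 276 with limma and the replicate number as a block, and 696 with the likelihood-ratio test without overdispersion. Leaving out each library in turn gave 0 to 2. Bins kept a count of 0 under every alternative planned for them, and 2 were called on the percent scale, on that scale without AME-d21 replicate 4, and with equal weights for CpGs, all chosen after seeing the data. Promoters kept 0 under every alternative run. Gene bodies gave 0 to 1 when each library was left out, the body of Pop7 without AME-d21 replicate 4 (0.174% in AME-d21 without it and 0% in Con-d21) and that of Pick1 without AME-d21 replicate 5 (0.402% in AME-d21 with it and 0% in Con-d21), and 0 under the other alternatives. The replicate block called 0 bins, 0 promoters and 0 gene bodies, and changed no call other than the CpG count above. The interaction called 0 with or without AME-d21 replicate 4. For the named regions 1351 values under alternatives stayed within the spread between libraries, 21 moved by more, and 19, all of the 2 CpGs, lost their call. No direction of a called CpG reversed. The cause of these changes was not tested.

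With 5 animals per group and a median of 55 reads per library at bins of 10% to 90% methylation, differences under about 10 points at these bins were mostly out of reach. That limit comes from unadjusted intervals. Larger differences at these bins were not called after adjustment either, which does not show that they are absent. The promoters of Lpin1, Il1b and Ces1g held fewer than 3 CpGs that passed the read minimum and were not tested.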
